A study of Mus musculus with 36 samples.

Results

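The genes described here are 5 of the 18193 genes named alone by a probe set, chosen as genes known for their expression in the atria of the mouse heart: Sln, Myl4, Myl7, Kcnj3 and Kcnj5. They are read by the probe sets whose platform annotation gives 1 of these symbols alone, which are 11 of the 45137 non-control probe sets on the Affymetrix chips 430A (7) and 430B (4). Of the 11, 9 passed a filter on dim probe sets, a mean signal of at least 20% of the trimmed mean of the chip. The hearts came from mice that carry both Tet-myrAkt1, a regulated transgene for a membrane-bound, active form of the kinase Akt1, and a cardiac tTA driver under the α-MHC promoter. Both transgenes are present in the hearts before induction too, so each comparison is between states of the transgene. The groups also differ in age, as given next, and age and transgene state cannot be told apart. The group before induction held 4 hearts, from mice aged 12 weeks. The group called 2 weeks on held 4, aged 14 weeks and induced for 2 weeks, and the group called 2 days off held 4, in which the transgene was then repressed until 14 weeks and 2 days. Of the older mice, 3 aged 18 weeks had been induced for 6 weeks (6 weeks on), and 3 aged 20 weeks had been repressed for the last 2 weeks after that (2 weeks off). All mice are labelled male and the tissue is labelled as heart. The sources used here do not give which chambers each sample held.

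Atrial and ventricular muscle cells use different versions of several proteins. Myl7 is the regulatory and Myl4 the essential myosin light chain of the adult mouse atrium, where the ventricle uses Myl2 and Myl3. Sarcolipin (Sln) is a small membrane protein that inhibits the calcium pump of the sarcoplasmic reticulum, the part played in the ventricle mainly by phospholamban. Kcnj3 (GIRK1) and Kcnj5 (GIRK4) encode the subunits that join into the acetylcholine-gated potassium channel, through which the vagus nerve slows the sinus node and shortens the atrial action potential. In the mouse the light chains and sarcolipin differ sharply between the chambers, whereas the channel subunits are also present in ventricular muscle.

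The upstream sequences of the genes are shown because 3 of the genes varied together between hearts and the channel genes did so less clearly. RefSeq entries on GRCm38.p6 were found for 4 of the 5 genes, and each window is the 250 bases before the annotated start, 5′ to 3′ on the strand of the gene, with searched motifs in capitals. The windows lie at chr11:5898783-5899032 (minus strand) for Myl7, chr11:104550413-104550662 (plus strand) for Myl4, chr2:55435720-55435969 (plus strand) for Kcnj3 and chr9:32344345-32344594 (minus strand) for Kcnj5.
Myl7: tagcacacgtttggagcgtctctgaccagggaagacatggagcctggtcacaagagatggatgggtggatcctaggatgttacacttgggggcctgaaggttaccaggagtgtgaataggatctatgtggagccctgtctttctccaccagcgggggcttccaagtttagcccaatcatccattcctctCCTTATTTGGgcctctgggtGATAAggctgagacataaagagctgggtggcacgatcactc
Myl4: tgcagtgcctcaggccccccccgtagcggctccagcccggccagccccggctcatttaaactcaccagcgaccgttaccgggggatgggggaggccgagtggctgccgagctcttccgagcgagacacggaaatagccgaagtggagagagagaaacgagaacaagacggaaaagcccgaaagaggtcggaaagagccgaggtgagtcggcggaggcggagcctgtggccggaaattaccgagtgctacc
Kcnj3: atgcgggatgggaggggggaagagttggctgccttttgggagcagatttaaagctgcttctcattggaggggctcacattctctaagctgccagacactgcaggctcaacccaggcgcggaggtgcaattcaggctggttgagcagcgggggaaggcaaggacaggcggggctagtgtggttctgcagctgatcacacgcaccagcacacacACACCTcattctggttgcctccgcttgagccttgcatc
Kcnj5: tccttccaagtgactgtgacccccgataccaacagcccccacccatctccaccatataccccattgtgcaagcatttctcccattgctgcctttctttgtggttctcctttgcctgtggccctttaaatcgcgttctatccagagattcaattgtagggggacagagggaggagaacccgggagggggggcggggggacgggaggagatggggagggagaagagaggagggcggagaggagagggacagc
The motifs searched on both strands were GATAA (of GATA factors), AGGTGT (of T-box factors), GTAAACA (of forkhead factors), the CArG box (of serum response factor) and the MEF2 box. The Myl7 window held CCTTATTTGG, a CArG box, 61 to 52 bases before the start, and GATAA 41 to 37 bases before it. The Kcnj3 window held AGGTGT on the opposite strand (printed as ACACCT), 38 to 33 bases before the start. None of these letters was found in the Myl4 and Kcnj5 windows. Among 32851 windows of the same length, 22.6% held GATAA, 11.8% AGGTGT, 3.17% GTAAACA, 1.47% a CArG box and 2.92% a MEF2 box.

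Values are MAS5 signals in linear units, scaled before deposit so that every 430A array had a trimmed mean near 500.2 and every 430B array one near 122.5. Akt1, by the probe set that followed the induction, had a mean signal of 547.8 ± 69.7 before induction, 2878 ± 645 at 2 weeks on, 718 ± 21.8 at 2 days off (SD, n = 4 each). With 3 hearts each it had 2365 ± 542 (SD) at 6 weeks on and 753 ± 106 (SD) at 2 weeks off. Hearts 3 and 4 before induction had Xist signals of 2518 and 2170.2, against at most 92.8 in the other 16 hearts, although all are labelled male. The Actb 3′ to 5′ ratio was 0.952 to 1.92 in 17 hearts and 3.71 in heart 3 at 6 weeks on. All 8 markers of heart muscle cells were above the filter, with summed signals of 248.9 to 524.6 times the trimmed mean in single hearts.

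Sarcolipin and Myl7 were high in some hearts and very low in others of every group, and Myl4 was highest in the same hearts. The Sln signal before induction was 7.7, 14.3, 13.6 and 10056.9 in hearts 1 to 4. At 2 weeks on it was 89.8, 19.8, 1779.5 and 7.8, and at 2 days off 6984.7, 3347.2, 1876.5 and 8.5. At 6 weeks on it was 559.8, 22.0 and 6.3, and at 2 weeks off 7886.6, 2005.2 and 5.0. Each group thus held at least 1 heart at or under 22 units and at least 1 above 500, and all pairs of groups overlapped.

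Myl7, the regulatory light chain, had signals of 6.1, 92.3, 20.8 and 13763.1 before induction. They were 369.9, 190.8, 3626.4 and 45.6 at 2 weeks on, and 8760.8, 4869.0, 3272.5 and 32.1 at 2 days off. They were 894.4, 64.2 and 14.3 at 6 weeks on, and 9701.3, 3217.0 and 15.3 at 2 weeks off. The hearts with high Myl7 were those with high Sln: heart 4 before induction, heart 3 at 2 weeks on, hearts 1 to 3 at 2 days off, heart 1 at 6 weeks on, and hearts 1 and 2 at 2 weeks off.

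Myl4, the essential light chain, followed the same hearts from a higher floor. Its signals were 321.7, 369.3, 311.7 and 16376.7 before induction, 1455.5, 766.8, 3771.0 and 676.2 at 2 weeks on, and 10169.1, 7097.8, 4467.3 and 369.8 at 2 days off. They were 3281.4, 529.1 and 1104.1 at 6 weeks on, and 10746.2, 3989.8 and 400.0 at 2 weeks off. In the hearts with Myl7 under the trimmed mean of the chip, the Myl4 signal was thus 311.7 to 369.3 before induction, 676.2 to 1455.5 at 2 weeks on, 529.1 and 1104.1 at 6 weeks on, 369.8 at 2 days off, and 400.0 in the group 2 weeks off. These hearts were not alike in Myl7, which was 6.1 to 92.3 before induction and 45.6 to 369.9 at 2 weeks on.

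**Figure D1:**
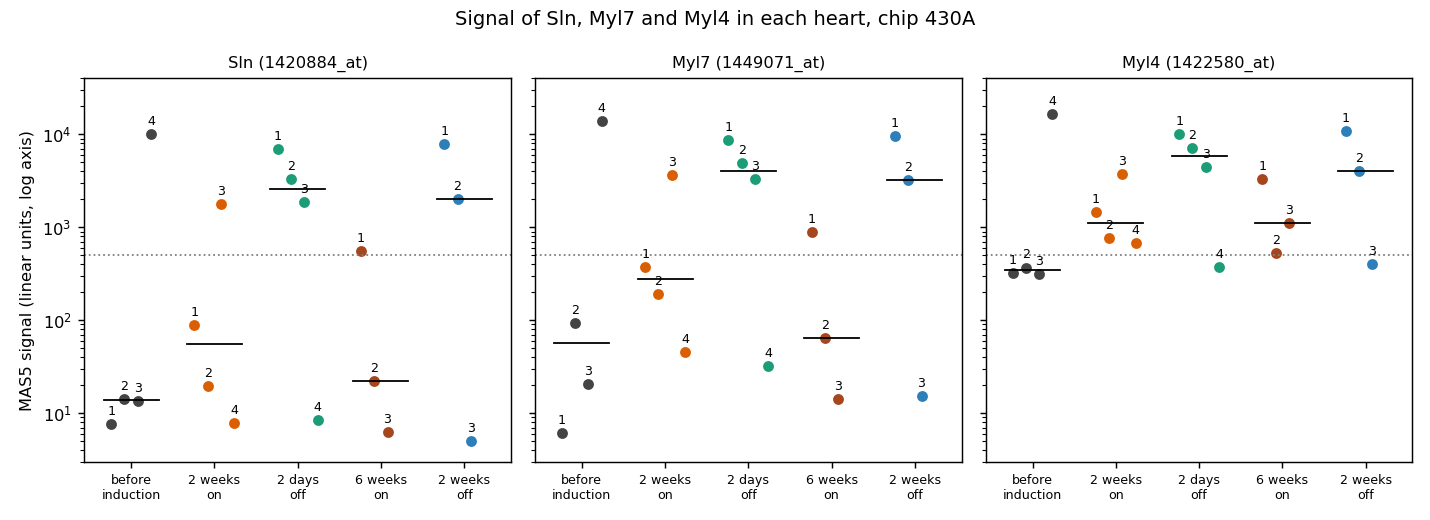
MAS5 signal (log axis) of Sln, Myl4 and Myl7 in each of the 18 hearts by group, numbered by replicate, with group medians as bars and the trimmed mean of the chip as a dotted line. The same hearts are high for all 3 genes, from 559.8 to 10056.9 for Sln, and each group holds at least 1 heart far below the dotted line for Sln and Myl7, whereas the lowest Myl4 signal is 311.7.

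None of these 3 genes was called in any of the 7 comparisons (limma, Benjamini-Hochberg adjusted p under 0.05). Their log2 changes ran from -0.71 to 2.84 for Sln, with standard errors of 1.77 to 2.05, from -1.19 to 2.74 for Myl7 (SE 1.79 to 2.07) and from -0.06 to 1.81 for Myl4 (SE 1.18 to 1.36). The lowest adjusted p was 0.285 for Sln, 0.390 for Myl7 and 0.411 for Myl4. The largest Sln difference was that of 2 days off against 2 weeks on, at 2.84, and that of 2 weeks off against 6 weeks on was also 2.83. Single hearts set the sign in places: for 2 weeks on against before induction the Sln change was -0.30, and 1.54 without heart 4 before induction, 0.15 without heart 2 at 2 weeks on and 0.24 without heart 4 at 2 weeks on. In RNA of whole tissue, fewer cells of a type and less RNA per cell cannot be told apart.

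The spread between hearts of a group was larger for these 3 genes than for any other probe set tested on their chip. The within-group SD of the log2 signal was 3.06 for Myl7, 3.03 for Sln and 2.02 for Myl4, ranks 1, 2 and 3 of 15565, where the median probe set had 0.248. The brightest Kcnj3 probe set of chip 430A, at 0.273, stood at the 59.3 percentile and that of Kcnj5, at 0.399, at the 87.0 percentile. On chip 430B, where the median was 0.376, Kcnj5 had 0.299 and the Kcnj3 probe sets 0.361 and 0.496.

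Between hearts of a group, Sln, Myl4 and Myl7 moved together. Over the deviations of 18 hearts from their group means, Pearson's r was 0.99 for Sln with Myl7 (permutation p = 1e-05, the smallest that 100000 resamples can give; adjusted over 10 pairs 0.0001), with Spearman's rho 0.98 (permutation p = 1e-05). It was 0.98 for Sln with Myl4 (permutation p = 4e-05, adjusted 0.0002; rho 0.98, p = 5e-05) and 0.98 for Myl4 with Myl7 (permutation p = 8e-05, adjusted 0.000267; rho 0.95, p = 0.00012). Without the 2 hearts farthest from the median these values were 0.99, 0.98 and 0.96. The first principal component of the 5 genes held 60.1% of their variance, and it took up 99.6% of the variance of Sln, 97.8% of Myl4 and 98.6% of Myl7, but 3.64% of Kcnj3 and 0.647% of Kcnj5 on chip 430A.

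The relation was also read within the bright hearts alone. In the 8 hearts whose Myl7 signal exceeded the trimmed mean, Myl7 spanned a 15.4-fold range and Sln an 18.0-fold range, while the Sln signal divided by that of Myl7 ran only from 0.491 to 0.813 (median 0.657). Over the log2 signals of those hearts, with the groups pooled and given as a description, r with Myl7 was 0.99 for Sln and 0.91 for Myl4. In the other 10 hearts it was 0.86 for Sln and 0.62 for Myl4. The Myl4 signal divided by that of Myl7 was 1.04 to 1.46 in 7 of the 8 bright hearts and 3.67 in heart 1 at 6 weeks on, the dimmest of them for Myl7.

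The remaining probe sets of these genes were dim. A further Myl4 probe set ran from 64.9 to 373.9 over the hearts and did not follow the bright one (r with Myl7 0.23, permutation p = 0.368). A further Sln probe set, at 13.2 to 109.5, and a Kcnj3 probe set of chip 430B, at 2.99 to 42.1, were under the filter and were not tested.

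**Figure D2:**
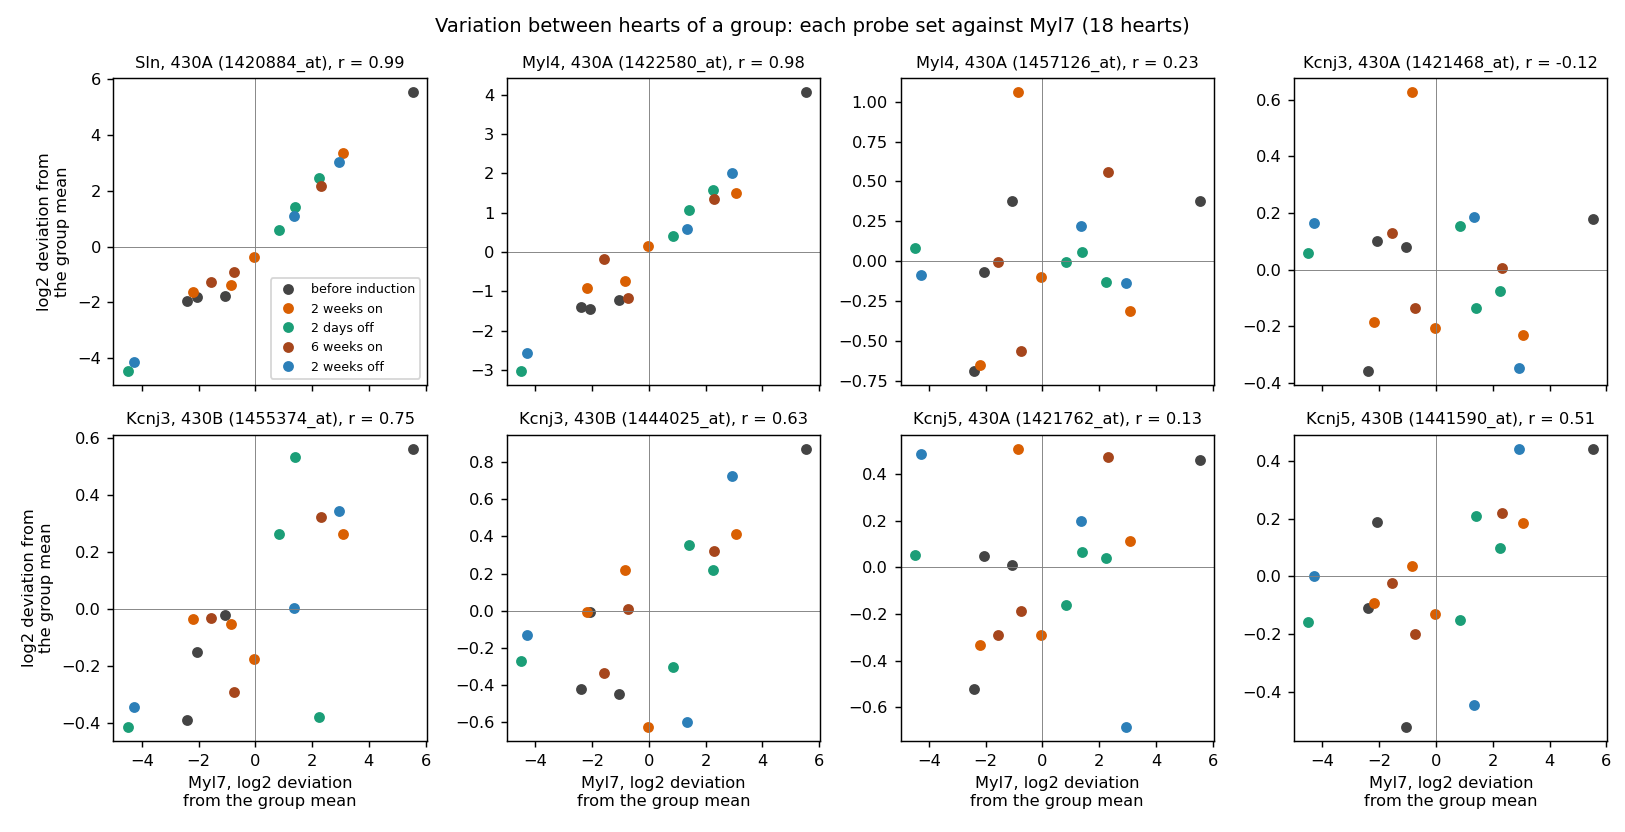
Log2 deviation of each other member probe set from its group mean against that of Myl7, 1 point per heart, coloured by group, with Pearson's r in each title. Sln and the bright Myl4 probe set lie near a line (r = 0.99 and 0.98), Kcnj3 1455374_at follows with more scatter (0.75), the other 430B probe sets have 0.63 and 0.51 without passing the test, and the 430A ones of the channel have -0.12 and 0.13.

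The channel subunits were steadier than the light chains, and each had a single called change. Kcnj3 on chip 430B (1455374_at) had signals of 139, 183, 166 and 280 before induction, and 333, 364, 457 and 369 at 2 weeks on. All hearts at 2 weeks on lay above those before induction, with means of 381 ± 53.1 and 192 ± 61.6 (SD, n = 4 each). The log2 change was 0.98 ± 0.233 (SE; limma adjusted p = 0.0302), the 1 call among the 9 member probe sets tested, where 5.01% of all probe sets were called. That call was lost without any 1 of hearts 1, 2 or 3 before induction or hearts 2, 3 or 4 at 2 weeks on (adjusted p of 0.0640 to 0.101), and with a prior variance that does not follow the mean (0.0715). The signals were 179, 349, 287 and 174 at 2 days off, 269, 171 and 207 at 6 weeks on, and 237, 184 and 143 at 2 weeks off, each group overlapping the hearts before induction.

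The other Kcnj3 probe sets did not give that change. On chip 430A the signal was 293.1, 414.4, 421.9 and 447.3 before induction and 401.3, 753.4, 393.4 and 407.7 at 2 weeks on, a log2 change of 0.24 ± 0.183 (SE; adjusted p = 0.460). It was 529.7, 507.0, 630.6 and 586.6 at 2 days off, 488.9, 439.7 and 538.0 at 6 weeks on, and 338.2, 511.1 and 502.9 at 2 weeks off. The hearts at 2 days off lay above those before induction for that probe set, but the change of 0.48 was not called (adjusted p = 0.138). The second probe set of chip 430B (1444025_at) had 148, 146, 202 and 381 before induction, 156, 290, 333 and 246 at 2 weeks on, and 320.3, 353, 219 and 224 at 2 days off. It had 173, 137 and 105 at 6 weeks on and 495, 191 and 268 at 2 weeks off, where the hearts did not overlap (log2 change 1.05, adjusted p = 0.112).

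Kcnj5, the partner subunit, had its highest signals at 2 days off by its probe set on chip 430A. That probe set passed the filter only through those hearts: over the other 14 its mean was 95.3, under the filter of 100.04. Its signals were 58.4, 106.7, 110.8 and 163.9 before induction, 48.1, 120.6, 79.9 and 45.2 at 2 weeks on, and 224.7, 229.9, 189.0 and 227.2 at 2 days off. They were 123.6, 59.8 and 52.3 at 6 weeks on, and 51.1, 136.8 and 177.5 at 2 weeks off. Every heart at 2 days off lay above every other heart of the series. The log2 change against 2 weeks on was 1.16 ± 0.268 (SE; limma adjusted p = 0.00634), the 1 call among 9 member probe sets, where 9.73% of all probe sets were called. Because of the way it passed the filter, that call is no support for the members as a set; with every probe set tested and no filter the adjusted p was 0.00911. The ratio of Actb 3′ to 5′ signals, a sign of RNA quality, also differed between these groups without overlap, at 1.04 to 1.18 at 2 days off and 1.26 to 1.92 at 2 weeks on. With that ratio as a covariate the Kcnj5 change was 0.97 (adjusted p = 0.0269). Markers of other cells moved in the same comparison: Retn, of fat, by 1.19 (adjusted p = 0.00950) and Tagln, of smooth muscle, by 0.93 (0.0344), while Fabp4 fell by 0.50 (0.0343); their part in the change was not tested. Against the hearts before induction the change was 0.78 and was not called (adjusted p = 0.0940), although the hearts did not overlap.

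In order of their means, Kcnj5 on chip 430A stood at 217.7 ± 19.3 at 2 days off (SD, n = 4), 121.8 ± 64.5 at 2 weeks off (SD, n = 3), 109.95 ± 43.1 before induction (SD, n = 4), 78.6 ± 39.2 at 6 weeks on (SD, n = 3) and 73.5 ± 35.1 at 2 weeks on (SD, n = 4). The hearts of each group below the first overlapped those of its neighbour in that order. The Kcnj5 probe set on chip 430B did not show the difference: it had 322, 239, 399 and 477 before induction, 435, 490.0, 545 and 447 at 2 weeks on, and 535, 579, 448 and 445 at 2 days off. Its log2 change between the last groups was 0.06 ± 0.195 (SE). It had 542, 403 and 456 at 6 weeks on and 641, 341 and 469.9 at 2 weeks off.

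**Figure D3:**
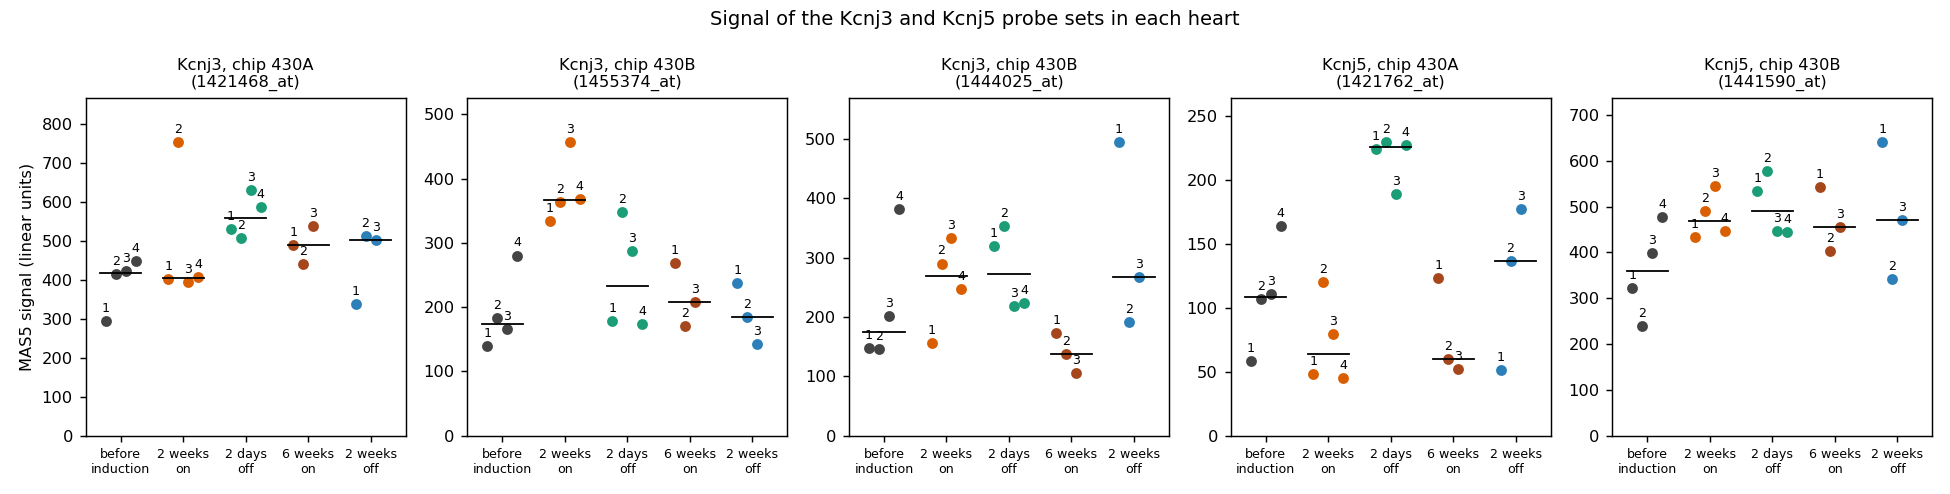
MAS5 signal (linear axes from 0) of the 5 Kcnj3 and Kcnj5 probe sets that passed the filter, in each heart by group, numbered by replicate, with group medians as bars. Kcnj3 1455374_at is high at 2 weeks on (333 to 457) and Kcnj5 1421762_at at 2 days off (189.0 to 229.9).

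In the other 5 comparisons none of the 9 member probe sets was called by limma. Of all probe sets 3.23% were called at 2 days off against before induction, 13.2% at 6 weeks on against before induction, 4.06% at 6 weeks on against 2 weeks on, 10.9% at 2 weeks off against 6 weeks on, and 2.57% at 2 weeks off against before induction. At an unadjusted p under 0.05 the members numbered 3, 0, 2, 1 and 0 in that order, where 17.9%, 26.9%, 18.2%, 23.5% and 16.3% of all probe sets reached it. Kcnj3 1455374_at was lower in all hearts at 6 weeks on than at 2 weeks on, with a change of -0.80 that was not called (adjusted p = 0.113). The change on repression after 2 weeks and that after 6 weeks were also compared directly: for none of the 9 was the difference called, with the lowest adjusted p at 0.426 for Kcnj5 on chip 430A (difference 0.78 ± 0.409, SE).

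With the log2 signal of Myl7 in each heart added to the model as a covariate, the standard errors of Sln and Myl4 fell to 0.248 and 0.277 in the first comparison. Sln was then lower at 2 weeks on than before induction by -0.84 ± 0.248 (SE; limma adjusted p = 0.0425) and higher at 2 days off than at 2 weeks on by 0.78 ± 0.256 (adjusted p = 0.0465). Neither call held without each heart in turn. The first was lost without heart 1, 3 or 4 before induction or heart 1 or 2 at 2 weeks on (adjusted p of 0.101 to 0.145), and the second without heart 1, 2 or 3 at 2 weeks on or any 1 heart at 2 days off (0.0544 to 0.122). With an offset of 5% of the trimmed mean their adjusted p values were 0.0566 and 0.0603. In the bright hearts the Sln signal divided by that of Myl7 was 0.491 at 2 weeks on and 0.731 before induction, each from 1 heart. It was 0.573 to 0.797 at 2 days off, 0.626 in 1 heart at 6 weeks on, and 0.813 and 0.623 at 2 weeks off.

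Under the same model Kcnj3 1455374_at was higher at 2 weeks on than before induction by 0.93 ± 0.179 (SE; adjusted p = 0.00932), and the adjusted p reached at most 0.0397 in the alternatives run on that model. It was lower at 2 days off than at 2 weeks on by -0.83 ± 0.185 (adjusted p = 0.0212), which was lost without heart 3 or 4 at 2 weeks on or heart 1 or 4 at 2 days off (0.0507 to 0.0960). The other tested Kcnj3 probe sets were not called. At 2 weeks on against before induction 1421468_at had 0.25 (adjusted p = 0.461) and 1444025_at 0.21 (0.795). At 2 days off against 2 weeks on they had 0.25 (0.409) and -0.08 (0.925). Kcnj5 on chip 430A, with the same limit from the filter, had a change of 1.12 ± 0.283 between those groups (adjusted p = 0.0133), and 1.05 without heart 4 at 2 days off (adjusted p = 0.0738). Its probe set on chip 430B had -0.04 there (adjusted p = 0.941). Myl4 changed by 0.12 ± 0.277 (SE; limma adjusted p = 0.841) at 2 weeks on against before induction. At 6 weeks on it was higher than before induction by 0.82 ± 0.300 (SE) and was not called (adjusted p = 0.0584). It was called without heart 2 at 6 weeks on (1.17, adjusted p = 0.0119) or heart 4 before induction (1.05, adjusted p = 0.0258). An offset of 20% of the trimmed mean (0.84, adjusted p = 0.0291) or the replicate block (0.92, adjusted p = 0.0344) also gave a call. Without heart 3 at 6 weeks on, the heart with the highest Actb ratio, its change was 0.41 (adjusted p = 0.328). Myl7 was read on chip 430A in the same hearts, so the covariate is a measured signal with an error of its own. For Kcnj3 1455374_at, on chip 430B, it was carried over by group and replicate number. That join is uncertain for heart 1 at 2 days off (r 0.0463 with its own number, 0.0839 with another).

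**Figure D4:**
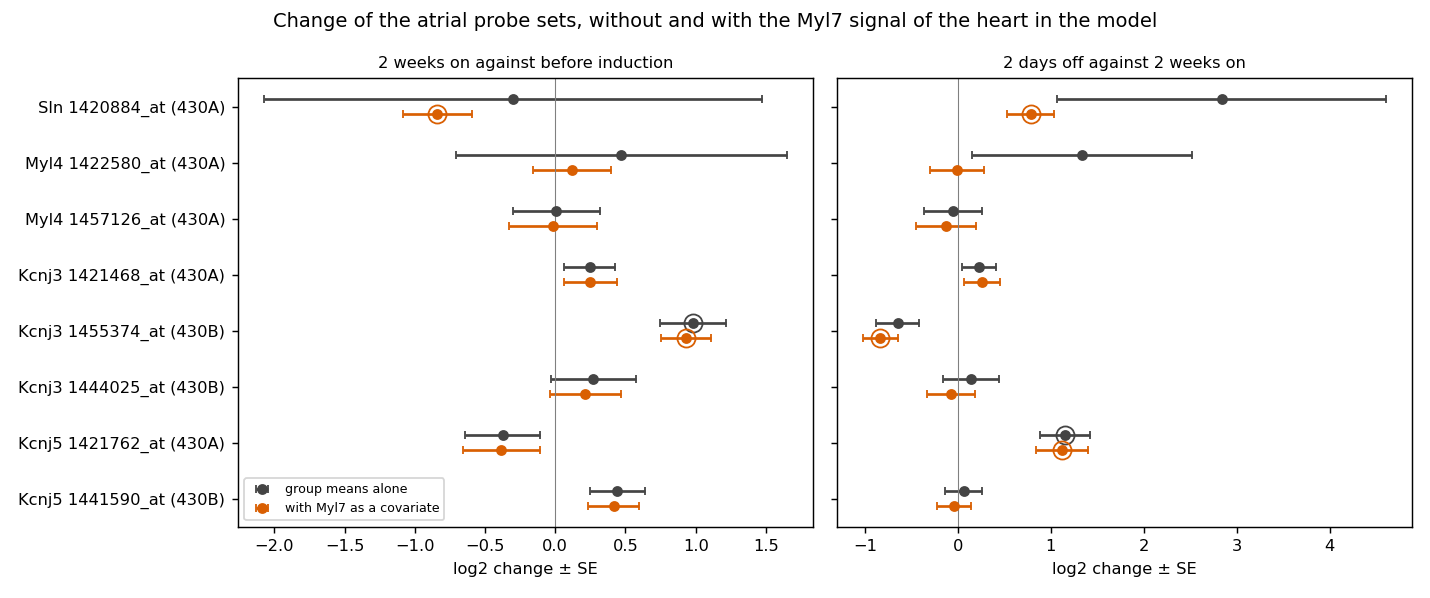
Log2 change ± SE of each member probe set other than Myl7, by the group means alone (grey) and with Myl7 as a covariate (orange), with ringed points for calls. For Sln at 2 weeks on against before induction the change is -0.30 ± 1.77 by the means alone and -0.84 ± 0.248 with the covariate, and Kcnj3 1455374_at at 2 days off against 2 weeks on goes from -0.65 to a call at -0.83.

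The channel genes varied with Myl7 by some probe sets and not by others. On chip 430B, r with Myl7 over 18 hearts was 0.75 for Kcnj3 1455374_at (permutation p = 0.00316, adjusted over 8 probe sets 0.00843; rho 0.74, permutation p = 0.00237), and 0.63 without the 2 farthest hearts. It was 0.63 for Kcnj3 1444025_at (permutation p = 0.0302, adjusted 0.0604; rho 0.60, p = 0.0298), with 0.50 without the 2 farthest, and 0.51 for Kcnj5 (permutation p = 0.117, adjusted 0.187; rho 0.53, p = 0.0606), with 0.36. On chip 430A it was -0.12 for Kcnj3 and 0.13 for Kcnj5 (permutation p = 0.664 and 0.680). There the Kcnj3 and Kcnj5 probe sets varied with each other, with r 0.70 (permutation p = 0.0131, adjusted over 10 pairs 0.0326; rho 0.66, p = 0.022, adjusted 0.0549) and 0.60 without the 2 farthest hearts. That call was lost in 15 of 31 alternatives, with an adjusted p of up to 0.447. Among these were leaving out heart 1 before induction, heart 1, 2 or 4 at 2 weeks on or any 1 heart at 2 weeks off (0.0513 to 0.161), arrays scaled to a common median (0.0934), quantile normalization (0.102) and the second brightest probe sets (0.286). Of 15565 probe sets on chip 430A, Kcnj5 was only the 627th closest to Kcnj3, and Kcnj3 the 413th closest to Kcnj5. This Kcnj5 probe set is the one that passed the filter only through the hearts at 2 days off. The other 6 pairs of the 5 genes had r between -0.19 and 0.13, with an adjusted permutation p of 0.79 each.

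Values of both chips were joined by group and replicate number. Over 100 probe sets present on both chips, 17 of 18 hearts correlated best with their own number; heart 1 at 2 days off did not.

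The probe sets most like each member were named by the highest r of within-group deviations over the 18 hearts, as a description. Sln and Myl7 were each other's closest probe set of 15565 on chip 430A, and Myl4 was the second closest to both. Next to Myl7 came Dhrs7, a dehydrogenase (r 0.90, signals of 499.1 to 1011.2), Baiap2, a scaffold of the actin cytoskeleton (0.89, 11.9 to 436.2), Dkk3, a secreted glycoprotein (0.87, 41.3 to 936.4), Fgl2 (0.87) and Hamp, the iron hormone hepcidin (0.87, 71.2 to 1217.8). The same genes stood next to Sln at 0.86 to 0.89, and next to Myl4 came Tgfbi, a matrix protein (0.91), Dkk3, Baiap2, Hamp and Dhrs7.

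The 430A probe sets of the channel subunits had other neighbours. Next to Kcnj3 stood Olfr15, an olfactory receptor, and Uhmk1 (0.92 each), then Actrt1, Mpo, the myeloperoxidase of neutrophils, and Kcnip1 (0.91 each), with signals of 50.4 to 445.9. Next to Kcnj5 stood Ms4a10 and Sirpa (0.93 each), Arnt and Brox (0.91 each) and Eif2s3x (0.89). Kcnj3 had 216 probe sets of the chip with r at or beyond 0.8 in either direction and Kcnj5 145, whereas Sln, Myl7 and Myl4 had 17, 18 and 22. Of 17519 probe sets on chip 430B, Kcnj3 1455374_at was the 20th closest to Myl7.

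Other genes known to be higher in atria than ventricles were read from a list of 14, of which 10 were tested. None of them was called in any comparison, where 2.57% to 13.2% of all probe sets were. Their median log2 change was 0.47 at 2 days off against 2 weeks on, beside -0.01 for all probe sets. At 2 weeks off against 6 weeks on it was 0.38, beside 0.02. Against before induction it was -0.24 at 2 weeks on and 0.37 at 2 days off, each beside -0.03. At 6 weeks on it was -0.07, beside -0.08, and at 2 weeks off 0.51, beside -0.03. Between 6 and 2 weeks on it was 0.12, beside -0.04. Their r with Myl7 between hearts of a group was 0.92 for Mybphl, a myosin-binding protein (signals of 24.5 to 2403), 0.85 for Dkk3 and 0.84 for Nppa, atrial natriuretic peptide (1354 to 26347). It was 0.73 for Stard10, 0.72 for Fgf12, 0.45 for Tbx5, 0.43 for Nr2f2, 0.37 for Bmp10, 0.16 for Pam and -0.13 for the potassium channel Kcnk3. The list therefore divided into 5 genes at or above 0.72 and 5 at or below 0.45.

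Of 7 ventricle-enriched genes 5 were tested, with r from -0.51 (Lbh) to 0.06 (Irx4). The ventricular light chains Myl2 and Myl3 stood at -0.26 and -0.23, with signals of 17578 to 44572 and 19370.2 to 45350.2, so no heart lacked them. Only Lbh was called: it rose at 2 weeks on (0.74) and 6 weeks on (0.93) against before induction and fell on each repression. Of all probe sets 5.01% and 13.2% were called in the comparisons where it rose. On repression after 2 and 6 weeks 9.73% and 10.9% were called.

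Markers of other cells were read beside Myl7 for 9 lists. The summed level of 4 markers of large-vessel smooth muscle varied with Myl7 at r 0.71 (permutation p = 0.0208, adjusted over 9 lists 0.187; rho 0.61), and at 0.61 without the 2 farthest hearts. That sum ran from 3.79 to 7.01 times the trimmed mean before induction, 3.78 to 5.58 at 2 weeks on, 3.50 to 14.2 at 2 days off, 8.03 to 8.41 at 6 weeks on and 3.25 to 12.0 at 2 weeks off. All 4 of those markers passed the filter, and Tagln had r 0.81 with Myl7, Acta2 0.68, Myh11 0.55 and Cnn1 0.36. The mesothelial sum had r 0.60 (permutation p = 0.0572, adjusted 0.258; 0.35 without the 2 farthest), with 2 of its 7 markers, Msln and Krt19, under the filter; it ran from 2.94 to 5.84 before induction, 2.91 to 3.48 at 2 weeks on, 2.46 to 3.35 at 2 days off, 2.66 to 2.97 at 6 weeks on and 2.67 to 4.09 at 2 weeks off.

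The other 7 sums had r between -0.31 and 0.39 with adjusted permutation p values of 0.423 or more. The adipocyte sum, mostly Fabp4, which endothelium also expresses, had r 0.24; of its 5 tested members Car3 had 0.86, Adipoq 0.75, Ucp1 0.60, Retn 0.45 and Fabp4 -0.19, and Car3 ran from 12.8 to 3702 and Adipoq from 4.1 to 1511. That sum ran from 22.8 to 25.6 times the trimmed mean before induction, 20.9 to 26.1 at 2 weeks on, 16.7 to 36.7 at 2 days off, 13.1 to 19.8 at 6 weeks on and 15.5 to 38.1 at 2 weeks off. Of 5 markers of sinus node and conduction tissue 3 were under the filter by the probe sets summed, and of the 3 tested Shox2, a sinus node factor read on chip 430B, had r 0.76 at signals of 17.2 to 138, Tbx3 0.46 and Cntn2 -0.12. All 7 markers of skeletal muscle were under it by the probe sets summed, the heart muscle sum had r -0.31, and the lung epithelium, erythroid and T cell sums had 0.39, 0.23 and -0.06. The part of these cells in the atrial signals was not tested.

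**Figure D5:**
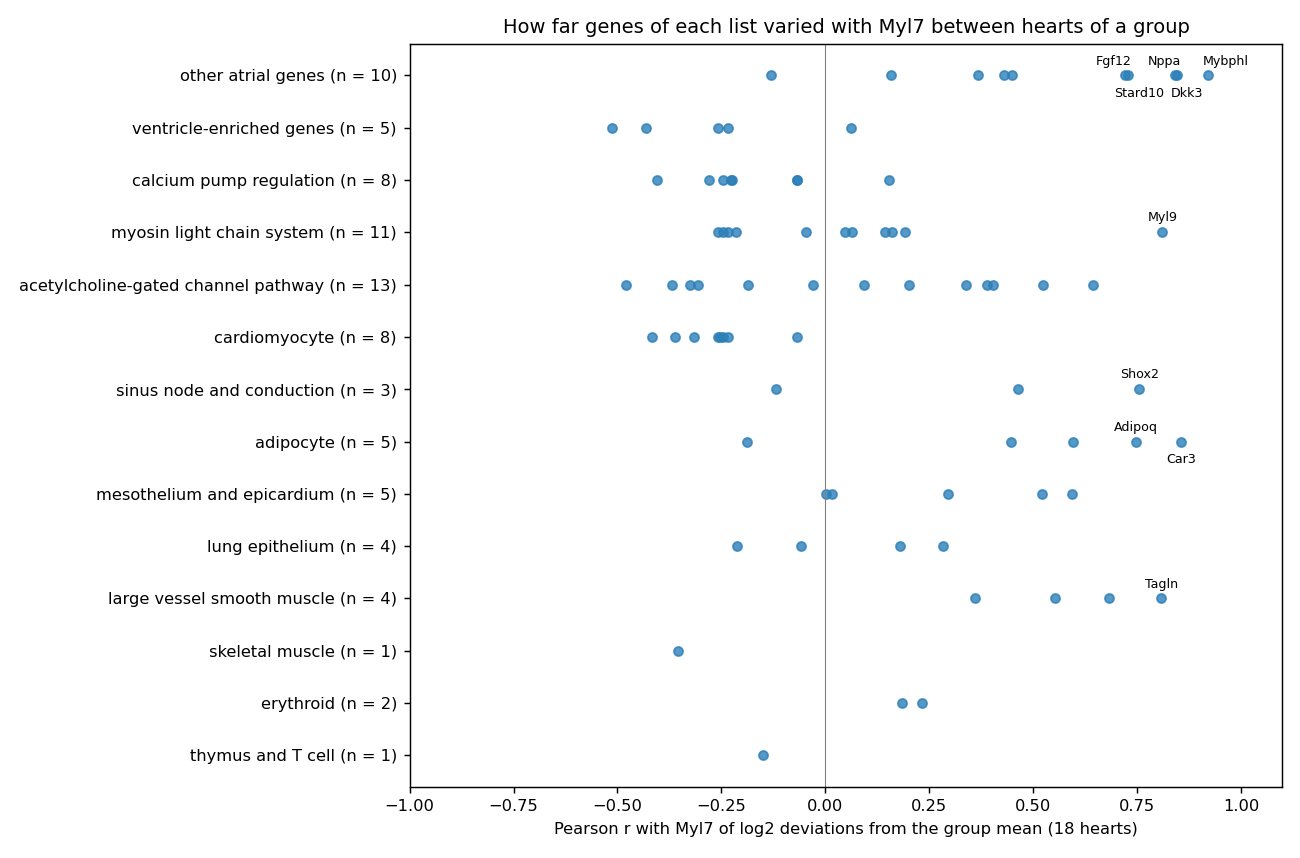
Pearson r with Myl7 of log2 deviations from the group mean over 18 hearts, 1 point per tested gene, by list, with genes at or above 0.72 named except where they repeat. Mybphl (0.92), Car3 (0.86), Dkk3 (0.85) and Nppa (0.84) lie farthest right, and the heart muscle genes lie below 0.

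Of 9 genes listed beside Sln, for the calcium pumps, their regulation and the release and storage of calcium, 8 were tested. At 2 weeks on against before induction 2 rose and 1 fell: Ryr2, the calcium release channel, by 0.90 and Casq2, the calcium store protein, by 0.69, while Pln, phospholamban, fell by 0.39 (median of the list -0.10, of all probe sets -0.03, of which 5.01% were called). At 6 weeks on 2 rose and 2 fell, with Casq2 at 1.06, Ryr2 at 0.62, Pln at -0.71 and Camk2d, a kinase of the pump's regulator, at -1.20 (median -0.04 beside -0.08; 13.2% of all probe sets called). At 2 days off against 2 weeks on 1 fell, Hrc at -0.39, and none rose (9.73% of all probe sets called). At 2 weeks off against 6 weeks on Ryr2 (0.57) and Pln (0.41) rose and none fell (10.9% called). Against before induction Ryr2 alone was called at 2 days off (1.05) and at 2 weeks off (1.19). Of all probe sets 3.23% and 2.57% were called there. Between 6 and 2 weeks on none of the list was called (4.06% of all probe sets called). The pump itself, Atp2a2, was not called in any comparison, and the highest r of the list with Myl7 was 0.15, for Atp2a1.

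Of 11 genes of the myosin light chain system, 1 rose and 2 fell at 2 weeks on. Myl1, an essential light chain known from skeletal muscle, rose by 2.42, and Mylk3, the cardiac light chain kinase, and Myh7b fell by 1.16 and 0.79 (median -0.19 beside -0.03; 5.01% of all probe sets called). At 6 weeks on Myl1 was higher by 3.14 and Myh7, the slow myosin heavy chain, by 1.69, and Mylk3 was lower by -2.04 (median -0.23 beside -0.08; 13.2% called). Mylk3 was higher by 0.93 at 2 days off than at 2 weeks on (9.73% of all probe sets called). At 2 weeks off against 6 weeks on Mylk3 was higher by 1.73 and Myh7 lower by -1.58 (10.9% called). Between 6 and 2 weeks on Myh7 rose by 2.38 and Mylk3 fell by 0.88 (4.06% called). Against before induction Myl1 alone was called at 2 days off (2.42) and 2 weeks off (2.56). Of all probe sets 3.23% and 2.57% were called there. Between hearts of a group Myl1 had r 0.05 with Myl7, and Myl9, the smooth muscle regulatory light chain, 0.81.

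Of 13 tested genes of the pathway that opens the Kcnj3 and Kcnj5 channel, 1 rose and none fell at 2 weeks on, Gnao1, an inhibitory G protein subunit, by 0.58 (median 0.05 beside -0.03; 5.01% of all probe sets called). At 6 weeks on against before induction 2 rose and 2 fell: Gnao1 by 1.60 and Gnai2 by 0.57, against Rgs4, which speeds the deactivation of G proteins, at -1.68 and Gnai3 at -0.48 (median 0.13 beside -0.08; 13.2% called). At 2 days off Gnb2 fell by 0.50 against 2 weeks on and nothing rose (9.73% of all probe sets called). Rgs6, the regulator that times the closing of this channel, rose by 0.80 at 2 days off against before induction. Rgs2 fell there by 0.83 (3.23% called). At 2 weeks off against 6 weeks on 2 rose and 3 fell (10.9% called). Among them were Rgs4 at 1.53, Gnai3 at 0.65, Gnao1 at -1.13 and Rgs2 at -1.08. Between 6 and 2 weeks on 1 rose (Gnao1, 1.02) and 2 fell (Rgs4, -1.30, and Gnai3, -0.57), with 4.06% of all called. Against before induction Rgs2 alone was called at 2 weeks off (-0.96, with 2.57% of all called). The r of these genes with Myl7 ran from -0.48 (Gnb4) to 0.64 (Gng2).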

How the data were processed

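RNA of 18 hearts, isolated with Ultraspec-II and biotin-labelled, was hybridised to 36 arrays, 1 of each chip per heart, per the labels. The deposited values are linear intensity values, made with MAS5 per the submitters' processing notes. The sources used here give no version of it. Every array of a chip had the same 2% trimmed mean to within 0.006% (430A: 500.2, 430B: 122.5), so signals were used as deposited. Gene symbols came from the platform annotation.

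Signals were log2-transformed after adding 10% of the trimmed mean, and probe sets with a mean signal of at least 20% of it were kept (15565 on 430A, 17519 on 430B). The model, by chip, was limma's (version 3.58.1 under R 4.3.3; lmFit, then eBayes with a trend); each group had its mean, over 18 arrays in all, with Benjamini-Hochberg adjustment within the chip and calls at an adjusted p under 0.05. The labels speak of individual mice, so the spread behind each p is that between hearts, and their number limits the precision. In the pairs and lists, the brightest probe set represented its gene, with 430A first. Correlations used log2 deviations from group means, with two-sided p by permuting hearts within their group (scipy 1.17.1, numpy 2.4.6). The splits by Myl7 signal, the tests of every probe set against Myl7 and the checks of the covariate were added after the data were seen. For each gene the 5 most alike were named, and of each list the called genes with the lowest adjusted p, up to 4 per comparison; correlations of single list genes with Myl7 name the highest and those given by the list. The scripts were tested on simulated data. The members and all 14 lists were chosen with earlier results of these data known. Scan dates and detection calls were not used here. Promoter windows came from RefSeq.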

Additional observations from a re-analysis of the deposited data

Results flagged for a closer look

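In groups of 4 hearts, 33 combinations of member probe set and group were examined for a single heart far from the other 3, and 7 were flagged. The cutoff flags about 1 in 20 groups of normally distributed values. The signals examined were linear and spanned wide ranges within a group, so the 7 cannot be set against that rate. Heart 4 before induction was far above the others for Sln (10056.9, the next heart 14.3), Myl4 (16376.7, next 369.3) and Myl7 (13763.1, next 92.3), and it is also 1 of the 2 hearts with Xist signal; heart 3, the other, had a Myl7 signal of 20.8. Heart 3 at 2 weeks on was far above for Sln (1779.5, next 89.8) and Myl7 (3626.4, next 369.9). Heart 2 at 2 weeks on was above the others for Kcnj3 on chip 430A (753.4, next 407.7). Heart 3 at 2 days off was below the others for Kcnj5 on chip 430A (189.0, next 224.7). Flags of Sln, Myl4 and Myl7 are not independent, since these genes varied together.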

How the results depend on the processing

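For 2 weeks on against before induction the count of called member probe sets was 1, and 0 with eBayes without a trend, 0 with the replicate block, 2 with Myl7 as a covariate, and 0 to 1 leaving out single hearts. For 2 days off against 2 weeks on it was 1, and 0 with the filter at 50% (which leaves Kcnj5 on 430A untested). It was 3 with Myl7 as a covariate, and 1 to 1 leaving out hearts. The main count of 1 and the count of 3 include Kcnj5 on 430A, which passed the filter only through the hearts at 2 days off. The share of all probe sets called with Myl7 as a covariate is not given here. The Kcnj5 change ran from 0.89 to 1.36 over the settings of the main model that tested it. For 2 days off against before induction it was 0, and 1 with only the 2 groups compared (Kcnj5 on 430A, adjusted p = 0.0341), and for 6 weeks on against before induction 0, and 1 with arrays scaled to a common median (Kcnj3 on 430A, adjusted p = 0.0451). Of 10 pairs 4 were called, 1 with the second brightest probe set of each gene and 3 to 4 leaving out hearts; Myl7 with Kcnj3 reversed from -0.12 to 0.75 with that probe set. The calls of Sln, Myl4 and Myl7 with each other were lost only with those second probe sets (0.13 to 0.46), of which that of Sln is under the filter and that of Myl4 dim. Same-numbered hearts of different groups had a median correlation of -0.02 over 33 pairs, and 5 exceeded 0.1, so the numbers were not taken to pair the hearts; with the replicate block Kcnj3 1455374_at had an adjusted p of 0.0547. The number of arrays limits the precision, and signals under the filter have no reliable order. With standard errors of 1.18 to 2.07, a change in Sln, Myl4 or Myl7 of 1 log2 unit lies within the error of these data.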
